A study of Mus musculus with 19 samples.

Results

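The genes described here encode the potassium channels of the mouse genome and their auxiliary subunits. They are the entries of the deposited expression table whose symbol begins with Kcn followed by the letters and number of a channel family, without symbols ending in os or -ps. Of 60567 entries in the table, 102 were kept, with 97 distinct symbols, and 1 (*Kcnd3os*) was dropped. They were 15 inward rectifiers (Kir), 14 tandem pore domain channels (K2P), 42 entries for alpha subunits of voltage-gated channels (Kv), 9 for calcium- or sodium-activated channels (KCa and KNa), 19 for auxiliary subunits and 3 for noncoding transcripts (*Kcnq1ot1*, *Kcnmb4os1* and *Kcnmb4os2*). All 102 matched a gene of the same symbol or position in the GENCODE M21 annotation of the mm10 genome.

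RNA was sequenced from cells sorted by FACS from the hippocampus of 9 month-old male mice of the C57bl6 strain, in 19 samples. GFP+ astrocytes came from wildtype mice given an adeno-associated vector for GFP (WT-GFP, 7 samples), from APP/PS1dE9 mice given the same vector (APP-GFP, 4 samples) and from APP/PS1dE9 mice given vectors for GFP and SOCS3 at an equal total viral load (APP-SOCS3, 5 samples). Cells without GFP from WT-GFP mice (GFP- cells, 3 samples) hold microglia, neurons, other cells and astrocytes that the vector did not reach. APP/PS1dE9 mice carry mutated transgenes for amyloid precursor protein and presenilin and form amyloid plaques, and SOCS3 inhibits the JAK2-STAT3 pathway. Transgenes of the vectors were driven by a promoter derived from that of the astrocyte gene *Gfap*. The cells of a GFP+ sample are therefore those that were both infected and collected. The study gives the sizes of the GFP+ groups as numbers of mice and sorted both hippocampi of a mouse separately, and whether GFP- samples came from the mice of WT-GFP samples is not stated.

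Potassium channels let K+ leave or enter cells along its gradient. Kir and K2P channels are open near the resting potential and keep the astrocyte membrane highly permeable to K+, by which astrocytes take up the K+ that neurons release. Kir channels of astrocytes are made of *Kcnj10* subunits alone or joined with *Kcnj16*, and they sit near the water channel AQP4 on endfeet around vessels. Kv channels open on depolarization, KCa channels on a rise in calcium, and both are best known for shaping the firing of neurons.

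Promoter sequences are given for *Kcnj10*, *Kcnj16* and *Kcnk1*, the genes at the centre of the astrocyte results, and because SOCS3 acts on STAT3, whose known DNA motif is TTCNNNGAA. They come from RefSeq (build GRCm38.p6, the build of mm10) and cover the 250 bases before the annotated start, 5′ to 3′ on the plus strand, with capitals on any match to TTCNNNGAA. *Kcnj16* has 4 annotated starts, of which the first is shown.
Kcnj10 (chr1:172340960-172341209): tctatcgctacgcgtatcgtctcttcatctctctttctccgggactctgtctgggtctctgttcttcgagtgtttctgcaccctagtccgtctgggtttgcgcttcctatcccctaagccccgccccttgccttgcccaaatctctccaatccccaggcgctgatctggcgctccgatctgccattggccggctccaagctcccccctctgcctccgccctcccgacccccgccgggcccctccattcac
Kcnj16 (chr11:110967783-110968032): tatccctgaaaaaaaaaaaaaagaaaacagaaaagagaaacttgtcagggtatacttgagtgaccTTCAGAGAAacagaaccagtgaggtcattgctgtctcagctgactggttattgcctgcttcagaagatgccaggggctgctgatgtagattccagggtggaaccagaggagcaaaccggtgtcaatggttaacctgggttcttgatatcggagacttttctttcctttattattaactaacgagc
Kcnk1 (chr8:125994852-125995101): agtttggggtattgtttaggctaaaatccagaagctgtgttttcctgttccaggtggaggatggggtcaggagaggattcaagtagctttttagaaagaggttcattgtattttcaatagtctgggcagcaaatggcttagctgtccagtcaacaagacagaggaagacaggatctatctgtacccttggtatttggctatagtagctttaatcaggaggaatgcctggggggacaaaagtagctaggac
The motif reads the same on both strands. It was found at the first start of *Kcnj16*, beginning at position −185, but at none of its other annotated starts. Neither of the other sequences shown held it. Of 94 coding symbols, 69 matched a promoter entry and 7 of them held the motif (*Kcnab1*, *Kcnip1*, *Kcnip3*, *Kcnj16*, *Kcnj9*, *Kcnk4* and *Kcnmb2*), a share of 10.1% against 8.13% of all 27025 genes with an entry. Base composition differed among the 3 promoters, with 62.0% G and C and 17 CG dinucleotides for *Kcnj10* and 44.4% and 0 for *Kcnk1*.

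Values are normalized mRNA levels, the reads on a gene divided by a size factor of the sample, and samples held 19331876 to 32621917 reads on genes. The sort was checked by marker genes. The summed level of 8 astrocyte markers was 500776 to 937652 in GFP+ samples and 17622.5 to 62028 in GFP- samples, and all 8 were called higher in WT-GFP astrocytes. Microglial, endothelial and mural markers (8 genes each) were all called lower, as were 5 of 5 genes of oligodendrocyte precursors, 6 of 8 neuronal markers and 5 of 6 choroid plexus markers, while 1 of 6 oligodendrocyte markers was called higher and 2 lower. None of the microglial, endothelial and mural markers was at 0 in every sample of a GFP+ group. *Socs3* had levels from 458 to 1208 with a median of 809 in WT-GFP astrocytes, and 1148, 438, 1639 and 1089.8 in APP-GFP astrocytes. In APP-SOCS3 astrocytes they were 14488, 37750.1, 13296, 15732 and 16050.4, all above the other GFP+ samples. GFP- samples, from wildtype mice, were at 15824, 10320 and 17689, so a high *Socs3* level was not confined to samples given the SOCS3 vector. In 4 libraries fewer genes were detected than in the others, 15575 to 19198 in WT-GFP replicates 1, 2 and 3 and in APP-GFP replicate 2, against 21602 to 26757 in the other GFP+ samples. Counts are therefore also given without these 4 libraries, an alternative chosen after seeing the data. Exons of 33 of the 102 entries overlap a gene on the other strand, and the library kit does not mark strand, so reads of such pairs cannot be told apart. Among genes named here these are *Kcna6*, *Kcnab1*, *Kcnab3*, *Kcng2*, *Kcnj3*, *Kcnj6*, *Kcnj9*, *Kcnj13*, *Kcnk1*, *Kcnk2*, *Kcnk3*, *Kcnma1*, *Kcnmb4os1*, *Kcnmb4os2*, *Kcnn1*, *Kcnn2*, *Kcnq1*, *Kcnq1ot1* and *Kcnt2*.

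Of the 102 entries, 8 had at most 3 reads in each of the 19 samples. These were *Kcne1*, *Kcng3*, *Kcnj1*, *Kcnk15*, *Kcnk16*, *Kcnk18* and 2 minor entries of *Kcnq1*. The number of entries with a mean level of at least 10 was 65 in WT-GFP, 63 in APP-GFP and 52 in APP-SOCS3 astrocytes, and 87 in GFP- cells.

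In WT-GFP astrocytes against GFP- cells, fewer channel genes were called higher in astrocytes than lower, a pattern shared by all genes tested. The higher genes were *Kcnj16*, *Kcnk1*, *Kcna2*, *Kcnc4*, *Kcng4*, *Kcnn2*, *Kcnn3* and *Kcne1l*, from every class of protein-coding entries. The lowest fold changes by limma were those of *Kcnj2* and *Kcnj8*, which form Kir channels of vessels, and *Kcne4*, an auxiliary subunit. All 3 were called in each of 20 alternatives, but the size moved with the fit. On the log2 scale it ran from −10.1 to −5.13 for *Kcnj2*, −9.5 to −4.61 for *Kcnj8* and −9.05 to −4.39 for *Kcne4*. *Kcnj10* itself was not called. Testing took in every gene whose mean level reached 10 in WT-GFP astrocytes or in GFP- cells. A gene was called where its fold change reached 1.5 at the 0.05 level of limma on log2(level + 1). SE is the standard error of a log2 fold change, and adjusted p is corrected over all genes tested. Of 88 members tested, 8 were called higher and 46 lower, which is 9.09% and 52.3% of them. Over all 26709 genes tested, 9.25% were called higher and 33.5% lower. Adjusted p was under 0.05 for 40 members, and these comprised all 8 higher ones. Levels of the 2 groups did not overlap for 7 members that were higher and 32 that were lower, against a background of 7.57% and 27.2% of all genes. Among the members tested, 23 passed the minimum level through GFP- cells alone, and 21 of the 46 called lower were of this kind. *Kcnf1*, *Kcnh5*, *Kcnh8*, *Kcnj2*, *Kcnj6* and *Kcnt2* belong to them. For such genes a lower mean in astrocytes was a condition of being tested, so their direction is not a separate result. The median log2 fold change was −3.28 over members and −1.31 over all genes tested, and 65 of 88 members lay below the latter. The number called lower was 25 by edgeR, which also moved the median of all genes to −0.37, 32 by DESeq2 and 39 without the 4 libraries with few genes detected, and 8 to 10 were called higher in these fits. GFP- samples hold many cell types, and fewer cells of a type cannot be told apart from less RNA per cell.

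**Figure D1:**
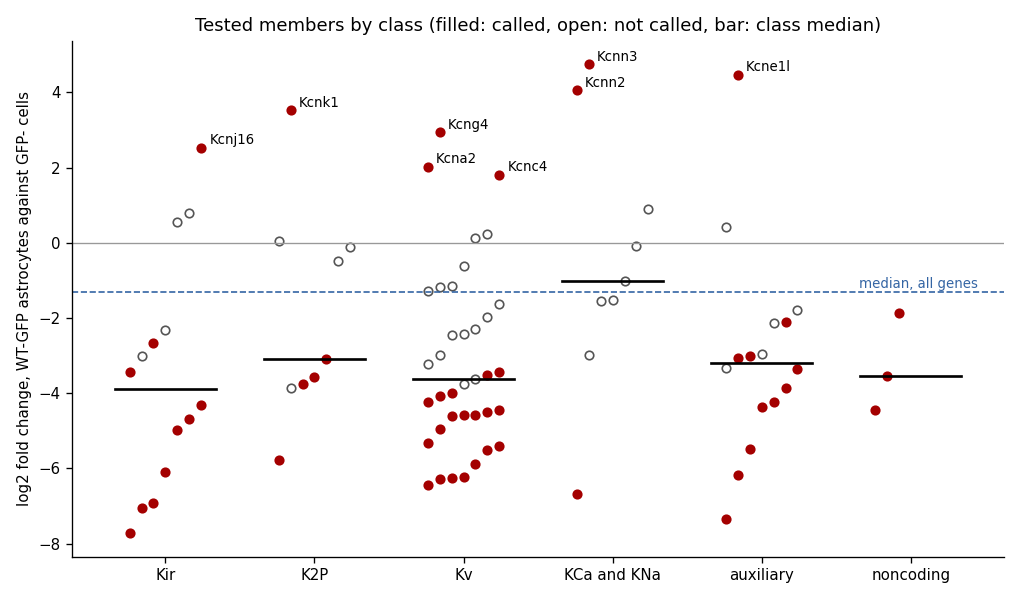
Log2 fold change of each of the 88 tested members in WT-GFP astrocytes against GFP- cells (y axis), by class (x axis). Filled points were called and open points were not, black bars are class medians, and the dashed line is the median of all genes tested, −1.31. The 8 members called higher are named, and 46 filled points lie below 0.

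By class, 1 of 14 tested Kir members was called higher and 9 lower, 1 and 4 of 9 K2P members, 3 and 19 of 37 Kv entries, 2 and 1 of 9 KCa and KNa entries, and 1 and 10 of 16 auxiliary entries. All 3 noncoding entries were called lower. Over all genes tested, 9.25% were called higher and 33.5% lower. Class medians were −3.89 for Kir, −3.09 for K2P, −3.62 for Kv, −1.005 for KCa and KNa, and −3.20 for auxiliary subunits, against −1.31 for all genes tested. With so few members in a class, no class was tested against all genes.

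*Kcnj10* (chromosome 1 from 172341207 to 172374085), the main Kir subunit of astrocytes, had levels from 2.27 to 508 with a median of 270.5 in WT-GFP astrocytes. The lowest value, of replicate 2, was 2 reads. Its levels were 296, 268, 115 and 129 in APP-GFP, 76.2, 458, 123, 124 and 199 in APP-SOCS3 and 106, 137 and 51.3 in GFP- samples. Groups overlapped in each comparison. The mean was 261 ± 193 (SD, n = 7) for WT-GFP astrocytes, against 97.9 ± 43.3 (SD, n = 3) for GFP- cells (log2 fold change 0.55, SE 1.39 and limma adjusted p = 0.774). Over the fits without 1 sample this log2 fold change ran from 0.15 to 1.45, the latter without WT-GFP replicate 2. The gene was not called in any of the 4 comparisons, and the sign of its fold change in APP-GFP and in APP-SOCS3 against WT-GFP astrocytes depended on WT-GFP replicate 2. Without it, the log2 fold changes were −0.42 and −0.63, in place of 0.47 and 0.27.

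*Kcnj16* (chromosome 11 from 110968031 to 111027968), the partner of *Kcnj10*, whose first promoter is shown above, was more abundant in astrocytes. Its levels ran from 5193 to 15206 with a median of 6581 in WT-GFP astrocytes and were 2066, 2086 and 809 in GFP- samples, so that every astrocyte sample lay above every GFP- sample. The mean was 5.74 times higher in astrocytes (log2 fold change 2.52, SE 0.413 and limma adjusted p = 0.000921, exact permutation p = 0.0167, the lowest these sample numbers permit). In APP-GFP astrocytes levels were 8641, 3635, 3302 and 10796 and in APP-SOCS3 astrocytes 6215, 12452, 4665, 5661 and 7867. Both groups overlapped with WT-GFP astrocytes, and *Kcnj16* was not called between GFP+ groups (log2 fold changes −0.59, 0.26 and −0.33 for APP-GFP against WT-GFP, APP-SOCS3 against APP-GFP and APP-SOCS3 against WT-GFP). Within each GFP+ group *Kcnj16* spread widely, with a mean of 9489 ± 4163 (SD, n = 7) in WT-GFP astrocytes.

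Of 14 Kir members tested, 9 were called lower in astrocytes than in GFP- cells, against 33.5% of all genes. *Kcnj8* (chromosome 6 from 142564839 to 142571372) encodes the pore of ATP-sensitive channels of mural cells. Its levels were 5472, 5533 and 7315 in GFP- samples and from 0 to 588 with a median of 187 in WT-GFP astrocytes (log2 fold change −7.06, SE 2.05 and limma adjusted p = 0.0233). *Kcnj2* (chromosome 11 from 111066162 to 111076825), a strong inward rectifier of heart, muscle and vessels, had levels of 539, 239.7 and 649 in GFP- samples and at most 29.4 in WT-GFP astrocytes (log2 fold change −7.72, SE 1.21 and limma adjusted p = 0.000698). Both genes had no overlap between the groups. The G protein-gated neuronal subunits *Kcnj3* and *Kcnj6* had mean levels of 207 and 60.8 in GFP- cells and 141 and 2.81 in WT-GFP astrocytes. Of the pair, *Kcnj6* was called lower by limma, and its call was lost by edgeR and DESeq2.

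*Kcnj13* (chromosome 1 from 87384577 to 87394729) and the auxiliary gene *Kcne2* (chromosome 16 from 92292387 to 92298131) are known in the choroid plexus epithelium, the tissue that secretes cerebrospinal fluid. *Kcnj13* levels in WT-GFP replicates 1 to 7 were 0, 0, 3484, 3451, 499, 106 and 1.13, and *Kcne2* levels were 0, 0, 3325, 545, 31.1, 0 and 0. Replicates 3 and 4 were far above the others for both genes. The summed level of 6 choroid plexus markers was 83369.7 and 51941 in these replicates and 68.1 to 7080.5 in the other WT-GFP samples, and 42410.4 to 118656 in GFP- samples. In APP-SOCS3 astrocytes *Kcnj13* was at 12.1, 1274, 889, 59.8 and 0 and in APP-GFP astrocytes at 775, 0, 174 and 989. In each GFP+ group the sample with the highest *Kcne2* level also had the highest sum of choroid plexus markers. This held for *Kcnj13* in WT-GFP and APP-SOCS3 astrocytes but not in APP-GFP astrocytes, where *Kcnj13* was highest in replicate 4 and the sum in replicate 1. Both genes were called lower in WT-GFP astrocytes than in GFP- cells, at the edge of the threshold (log2 fold change −6.10, SE 2.77 and limma adjusted p = 0.115 for *Kcnj13*, and −6.19, 2.63 and 0.0955 for *Kcne2*), but edgeR, DESeq2 and the fits without WT-GFP replicate 1, 2, 6 or 7 or without any 1 of the GFP- samples did not call either gene. Log2 fold changes were −1.75 by edgeR and −1.95 by DESeq2 for *Kcnj13* and −0.73 and −0.88 for *Kcne2*, with mean levels of 1077 and 557 in WT-GFP astrocytes and 4287 and 1062 in GFP- cells. By limma they were −5.14 to −7.10 for *Kcnj13* and −5.57 to −7.52 for *Kcne2* over all fits without 1 sample. Neither was called between GFP+ groups. The part of choroid plexus RNA in these values was not tested.

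**Figure D2:**
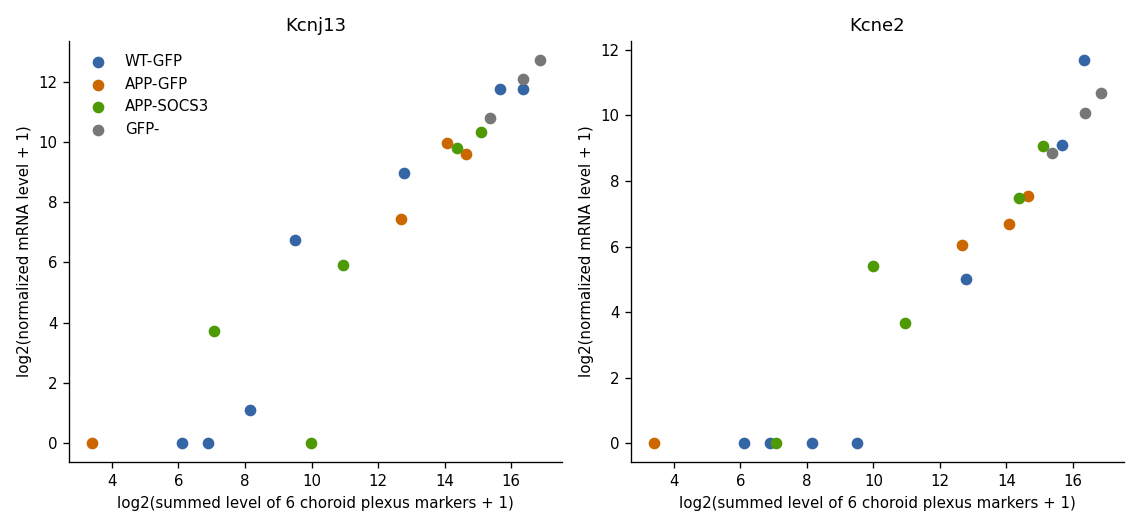
Log2(level + 1) of *Kcnj13* (left) and *Kcne2* (right) on the y axes against log2(summed level + 1) of 6 choroid plexus markers on the x axes, with 1 point for each of the 19 samples and colours for the 4 groups. Samples with high marker sums have high levels of both genes, and WT-GFP replicates 3 and 4 lie beside the GFP- samples.

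The K2P gene *Kcnk1* (chromosome 8 from 125995102 to 126030685) encodes a leak channel that in astrocytes contributes to the passive K+ conductance. Its levels were from 14736 to 21769.9 with a median of 20369.5 in WT-GFP astrocytes and 2596, 1987 and 787 in GFP- samples, a ratio of means of 10.4 (log2 fold change 3.53, SE 0.311 and limma adjusted p = 1.26e-05, exact permutation p = 0.0167). The groups lay far apart, and the call held in all 20 alternatives. *Kcnk2* (chromosome 1 from 189207930 to 189402273), a leak channel gated by stretch and lipids, had levels from 0 to 449 with a median of 265 in WT-GFP astrocytes, with 0 reads in replicate 2, and 162, 129 and 95.5 in GFP- samples. It was not called (log2 fold change 0.04, SE 1.66 and limma adjusted p = 0.988), but it was called without WT-GFP replicate 2 (log2 fold change 1.21) and without the 4 libraries with few genes detected (1.30).

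Of 9 K2P members tested, 4 were called lower in astrocytes, against 33.5% of all genes. Among these 4 were the following. *Kcnk3* (chromosome 5 from 30588087 to 30625270), an acid-sensitive leak channel, was at 1171, 1512 and 1254 in GFP- samples and from 20.3 to 418 with a median of 100.3 in WT-GFP astrocytes (log2 fold change −3.77, SE 0.740 and limma adjusted p = 0.00298). *Kcnk6* (chromosome 7 from 29221928 to 29232524), a channel related to *Kcnk1*, was at 669.7, 517 and 666 and at most 126 (log2 fold change −5.78, SE 1.79 and limma adjusted p = 0.0308). *Kcnk13* (chromosome 12 from 99964499 to 100062682), the channel that sets the resting potential of microglia, was at 78.4, 116 and 162 and at most 42.5. Groups did not overlap for these 3 genes, and *Kcnk13* (adjusted p = 0.0986 by limma) lost its call by edgeR, without WT-GFP replicate 2 (−2.65) and without any 1 of the GFP- samples (−3.36 to −2.84).

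Among Kv genes, *Kcna2* (chromosome 3 from 107101565 to 107115005), a delayed rectifier subunit of axons, was detected in every sample. Its levels ran from 3013 to 4003 with a median of 3451 in WT-GFP astrocytes and were 3715, 2687, 1987 and 4039 in APP-GFP and 3616, 2889.9, 4005, 4201 and 5069 in APP-SOCS3 astrocytes, and 1087, 1124 and 537 in GFP- samples (log2 fold change 2.03, SE 0.232 and limma adjusted p = 7.1e-05). Every astrocyte sample was above every GFP- sample. *Kcnc4* (chromosome 3 from 107438303 to 107458898), a subunit of fast channels, was at 305 ± 110.3 (SD, n = 7) and 83.4 ± 28.0 (SD, n = 3) (log2 fold change 1.81, SE 0.456 and limma adjusted p = 0.0122). *Kcng4* (chromosome 8 from 119623854 to 119635680), a modifier subunit that forms channels only with other Kv subunits, was at 202 ± 127 (SD, n = 7) and 28.1 ± 27.5 (SD, n = 3) (log2 fold change 2.93, SE 0.765 and limma adjusted p = 0.0144), with some overlap. *Kcnh6* (chromosome 11 from 106008203 to 106034064), of the ERG family, and *Kcna6* (chromosome 6 from 126708330 to 126740674), a delayed rectifier subunit, were not called, with mean levels in astrocytes and GFP- cells of 1305 and 1042 for the former and 565 and 739 for the latter (adjusted p = 0.736 and 0.468 by limma).

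Most Kv calls were lower in astrocytes, as were most calls over all genes (8948 lower and 2471 higher). *Kcnf1* (chromosome 12 from 17172102 to 17176888), a modifier subunit, and *Kcnh8* (chromosome 17 from 52602709 to 52979193), of the ELK family, had 0 reads in all 7 WT-GFP samples. Their levels were 52.3, 71.1 and 111 and 29.4, 46.1 and 8.84 in GFP- samples, at least 22.2-fold and 7.96-fold higher than a floor of 3 reads in a library. *Kcnh5* (chromosome 12 from 74897217 to 75177333), of the EAG family, was at 276, 124 and 84.9 in GFP- samples and at most 10.4 in astrocytes (log2 fold change −6.29, SE 1.01 and limma adjusted p = 0.000798). *Kcna3* (chromosome 3 from 107036162 to 107038129), a Kv subunit of microglia and T cells, was at 253, 197 and 151 and at most 41.7 (log2 fold change −5.51, SE 1.53 and limma adjusted p = 0.0191). *Kcnc1*, a delayed rectifier of neurons, was not called (mean levels 34.5 in WT-GFP astrocytes and 56.2 in GFP- cells). Of members known in other cells, 3 of 4 microglial, 2 of 2 mural or endothelial and 2 of 6 neuronal genes were called lower, against 33.5% of all genes. Summed levels of 8 neuronal markers were also low in GFP- cells, 1899 to 4372, against 98.9 to 953 in WT-GFP astrocytes.

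Both KCa members called higher in astrocytes encode calcium-activated channels of small conductance. *Kcnn2* had levels from 1793 to 3499 with a median of 2956 in WT-GFP astrocytes and 402, 138 and 86.6 in GFP- samples (log2 fold change 4.06, SE 0.400 and limma adjusted p = 2.46e-05). *Kcnn3* (chromosome 3 from 89520162 to 89672494) had levels from 186 to 475 with a median of 294 and 26.1, 6.81 and 5.30 (log2 fold change 4.75, SE 0.587 and limma adjusted p = 0.000126). Neither overlapped between the groups. *Kcnn1*, the remaining gene of small-conductance channels, had levels from 0 to 254 with a median of 111 and 76.2, 79.4 and 53.0, with overlap, and was not called (log2 fold change −0.07, SE 1.49 and limma adjusted p = 0.972). *Kcnn4* (chromosome 7 from 24370261 to 24385215), a member of the same family found in microglia, was at 70.7 in astrocytes and 145 in GFP- cells and was not called. *Kcnma1* (chromosome 14 from 23298694 to 24127601), the large-conductance channel, was at 378 ± 202 (SD, n = 7) and 527 ± 126 (SD, n = 3) and was not called either. The sodium-activated channels differed, as *Kcnt2* (chromosome 1 from 140246257 to 140610261) was at 313, 125 and 134 in GFP- samples and above 0 in 1 of 7 astrocyte samples (log2 fold change −6.68, SE 1.21 and limma adjusted p = 0.00176), while *Kcnt1* (chromosome 2 from 25863795 to 25918271) ran from 47.7 to 1141 with a median of 470.2 in astrocytes and was at 249, 194 and 148 in GFP- samples (adjusted p = 0.419).

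Among auxiliary subunits, *Kcne1l* (chromosome X from 142304753 to 142306198), a small membrane partner of Kv channels, had levels from 617 to 1682 with a median of 959 in WT-GFP astrocytes and 91.5, 39.3 and 21.2 in GFP- samples (log2 fold change 4.47, SE 0.442 and limma adjusted p = 2.5e-05). *Kcnip3* (chromosome 2 from 127456498 to 127522095), a calcium sensor that binds Kv channels, was at 2173 ± 369 (SD, n = 7) and 1626 ± 392 (SD, n = 3) and was not called. *Kcne4* (chromosome 1 from 78816910 to 78820026) was at 3203, 2972 and 3127 in GFP- samples and from 0 to 344 with a median of 48.4 in astrocytes, with 0 reads in 3 of 7 (log2 fold change −7.35, SE 2.13 and limma adjusted p = 0.0229). *Kcnab1* (chromosome 3 from 65109014 to 65378225), a cytoplasmic beta subunit of Kv channels, and *Kcnmb1* (chromosome 11 from 33963013 to 33973638), the beta subunit of large-conductance channels in smooth muscle, were also called lower, with log2 fold changes of −5.49 and −2.10. *Kcnmb1* lost its call by edgeR and without GFP- replicate 2 (−2.02) or 3 (−1.94).

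**Figure D3:**
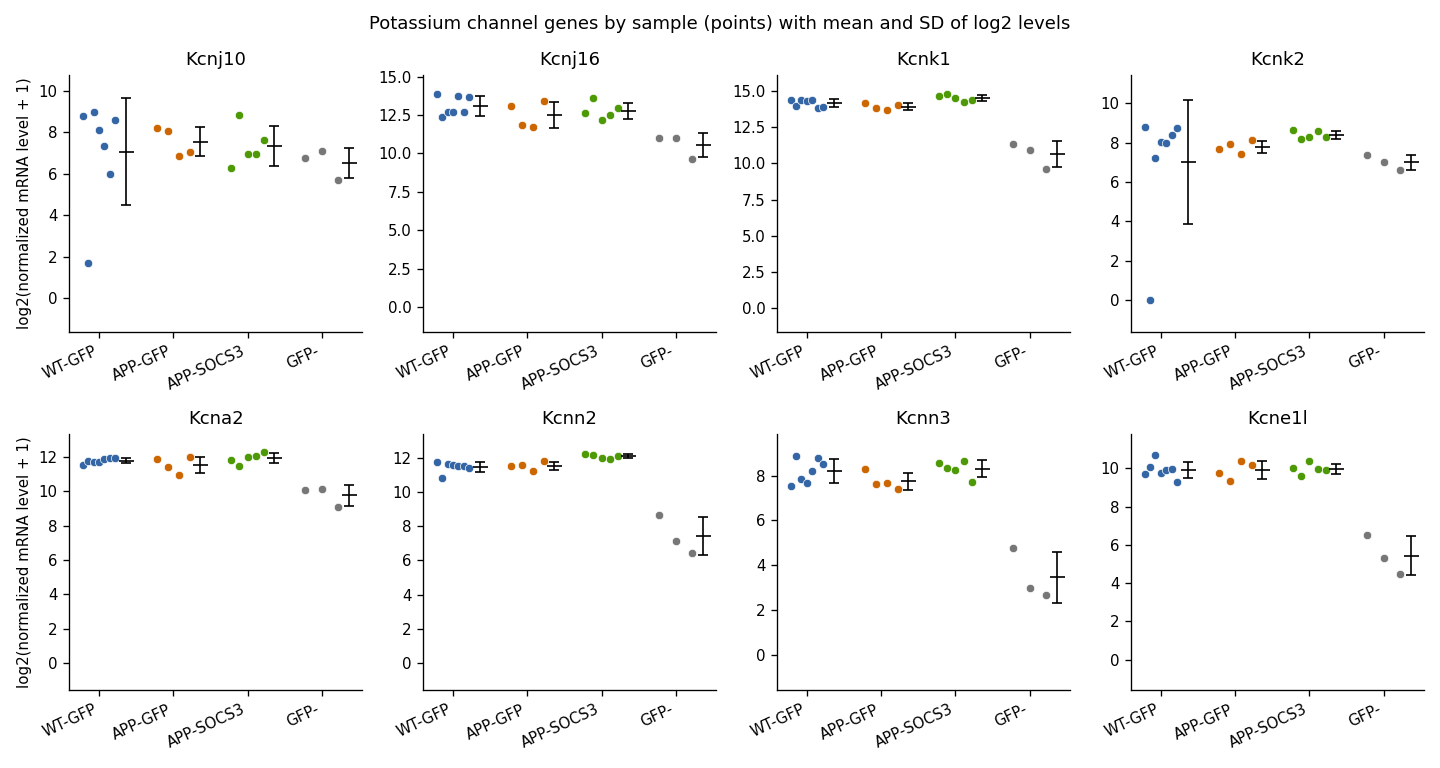
Log2(level + 1) of 8 potassium channel genes (y axes) in each sample of the 4 groups (x axes), with points for samples and black bars for the mean and SD of log2 levels. *Kcnj16*, *Kcnk1*, *Kcna2*, *Kcnn2*, *Kcnn3* and *Kcne1l* lie higher in all GFP+ samples than in GFP- samples, while *Kcnj10* and *Kcnk2* overlap and WT-GFP replicate 2 is lowest for both.

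To compare genes with each other, mean levels were divided by the length of each gene's exons in kb. In WT-GFP astrocytes *Kcnk1* came first with 8336 per kb, before *Kcnj16* with 2411, *Kcnj13* with 848, *Kcne1l* with 654, *Kcnip3* with 613 and *Kcnn2* with 385. *Kcnj13* owes its place to replicates 3 and 4, and *Kcne1l* and *Kcnip3* do not differ beyond their spread (SD 216 and 104 per kb). *Kcnj10* had 48.3 per kb. In GFP- cells the order began with *Kcnj13* (3376 per kb), *Kcnj8* (2397), *Kcne4* (1167) and *Kcnk1* (801). The bases on which reads were counted are not given with the values, so these figures per kb are approximate. With length taken as the bases shared by all coding transcripts of a gene, *Kcnj16* (31316 per kb) stood above *Kcnk1* (14233 per kb) and *Kcnn2* (7397 per kb) in WT-GFP astrocytes.

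**Figure D4:**
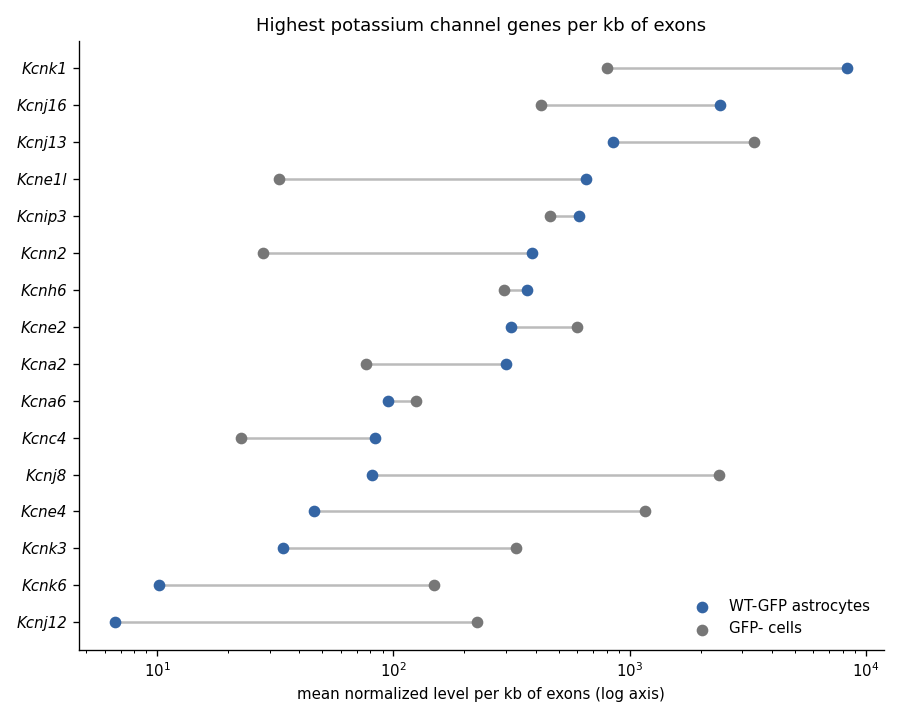
Mean normalized level per kb of exons (x axis, log scale) of the 16 genes among the 12 highest in WT-GFP astrocytes or in GFP- cells (y axis), with blue points for astrocytes and grey points for GFP- cells. *Kcnk1* and *Kcnj16* are at the right end in astrocytes and *Kcnj13* and *Kcnj8* in GFP- cells.

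Between APP-GFP and WT-GFP astrocytes, few channel genes differed. *Kcnj2* was the clearest, at 50.7, 142, 89.0 and 28.8 in the 4 APP-GFP samples and 0 in 5 of 7 WT-GFP samples, with 29.4 in replicate 5, just above the lowest APP-GFP sample. The mean was 77.7 ± 49.8 (SD, n = 4) in APP-GFP astrocytes (log2 fold change 5.01, SE 1.18 and limma adjusted p = 0.999, exact permutation p = 0.0121), far under the 476 of GFP- cells. It passed the minimum level through APP-GFP samples alone, and it was called with no minimum level as well. *Kcnab3* (chromosome 11 from 69326257 to 69333041), a cytoplasmic Kv subunit, was at 77.8, 186, 56.4 and 35.7 in APP-GFP and from 0 to 67.7 with a median of 2.35 in WT-GFP astrocytes (log2 fold change 3.62, SE 1.47 and limma adjusted p = 0.999). *Kcng2*, a modifier subunit, was at 27.2, 382, 65.3 and 12.2 and from 0 to 44.0 with a median of 5.90 (log2 fold change 3.34, SE 1.45 and limma adjusted p = 0.999), and *Kcnh6* was at 2596, 1479, 1897 and 2318 and from 677 to 2983 with a median of 937 (log2 fold change 0.85, SE 0.386 and limma adjusted p = 0.999). The last 3 genes overlapped more widely, and all 3 calls were lost without the 4 libraries with few genes detected (1.67, 1.95 and 0.69). *Kcnab3* was not called by edgeR (2.04) and DESeq2 (2.05), *Kcnh6* by edgeR (0.69) and DESeq2 (0.67), and *Kcng2* by edgeR (3.19). *Kcnab3* also lost it without WT-GFP replicate 1 or 6 or APP-GFP replicate 1 or 2 (3.18 to 3.60), *Kcng2* without WT-GFP replicate 2, 3, 4 or 6 or APP-GFP replicate 2 or 3 (2.42 to 3.40), and *Kcnh6* without WT-GFP replicate 1, 2, 3, 5 or 7 or APP-GFP replicate 1, 3 or 4 (0.72 to 0.88).

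In all, 4 of 69 members tested were called higher in APP-GFP and 0 lower by limma, against 1.66% and 0.57% of 22969 genes. At an unadjusted p under 0.05 these counts were also 4 and 0, by edgeR 2 were higher (*Kcnj2* and *Kcnf1*) and 2 lower, and by DESeq2 2 (*Kcnj2* and *Kcng2*) and 3, with *Kcnq1* among the lower in both. None had an adjusted p under 0.05 by limma, edgeR or DESeq2. Without the 4 libraries, 1 was called higher (*Kcnj2*) and 2 lower, among them *Kcnq1*. The counts were 2 in all without WT-GFP replicate 1, 2, 3 or 6 or without APP-GFP replicate 1. Members had a median log2 fold change of 0.35 and all genes 0.09. The astrocyte genes of the comparison above did not reach the thresholds, with log2 fold changes of −0.24 for *Kcnk1*, 0.05 for *Kcnn2*, −0.24 for *Kcna2*, −0.47 for *Kcnn3* and −0.0043 for *Kcne1l*.

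APP-SOCS3 astrocytes were compared with APP-GFP astrocytes to see the effect of blocking the JAK2-STAT3 pathway. *Kcnk1* and *Kcnk2* were among the members called higher with SOCS3, and *Kcnj2*, *Kcne4* and *Kcnab1* were called lower. Of the former pair, only *Kcnk1* was called higher in WT-GFP astrocytes than in GFP- cells. *Kcnk1*, the gene with the most mRNA per kb of exons in astrocytes, was at 26268, 28272, 23824, 19038 and 20923 in APP-SOCS3 and 18370.0, 14665, 13069 and 16818 in APP-GFP samples. Every APP-SOCS3 sample was above every APP-GFP sample. Means were 23665 ± 3773 (SD, n = 5) and 15731 ± 2336 (SD, n = 4), a ratio of 1.504 (log2 fold change 0.59, SE 0.149 and limma adjusted p = 0.576, exact permutation p = 0.0159, the lowest these sample numbers permit). This is just past the fold threshold, and the log2 fold change was 0.50 to 0.66 over 19 alternatives, of which 6 fell short of the threshold. They were the fit without the 4 libraries and those without APP-GFP replicate 2 or 3 or APP-SOCS3 replicate 1, 2 or 3. Of the 4 libraries only APP-GFP replicate 2 is in this comparison, so leaving them out and leaving out that replicate are the same fit. *Kcnk2* was at 392, 286, 310.0, 379 and 307 and 204, 247, 170.2 and 276, also without overlap (log2 fold change 0.59, SE 0.262 and limma adjusted p = 0.793, exact p = 0.0159), and 9 of 19 alternatives lost the call, among them those without APP-GFP replicate 1 or 3 or APP-SOCS3 replicate 1, 3, 4 or 5 (0.46 to 0.62).

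*Kcnn2* followed the same pattern just under the fold threshold. It was at 4764, 4498, 4097, 3843 and 4476 in APP-SOCS3 and 2961, 2989, 2345 and 3525 in APP-GFP samples, without overlap (log2 fold change 0.56, SE 0.143 and limma adjusted p = 0.576, exact permutation p = 0.0159). *Kcnn3*, of the same family, had a log2 fold change of 0.56 with overlap (unadjusted p = 0.0958 by limma). *Kcnj3* was at 452, 156, 235, 179 and 230.3 and 153, 0, 134 and 146, without overlap but short of the threshold of limma (log2 fold change 2.49, SE 1.32 and limma adjusted p = 0.816).

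The 3 genes called lower were far more abundant in GFP- cells than in astrocytes. All 3 passed the minimum level through APP-GFP samples alone, and they were called with no minimum level as well. *Kcnj2* was at 6.62, 0, 0, 7.84 and 0 in APP-SOCS3 samples, all below the lowest APP-GFP sample (log2 fold change −4.85, SE 1.08 and limma adjusted p = 0.514, exact permutation p = 0.0159). *Kcne4* was above 0 in 1 of 5 APP-SOCS3 samples, at 7.84, and at 1.81, 489.5, 139 and 43.6 in APP-GFP samples (log2 fold change −5.13, SE 1.48 and limma adjusted p = 0.602). *Kcnab1* was at 1.10, 0, 4.00, 11.8 and 19.3 in APP-SOCS3 samples and 19.01, 134, 80.1 and 29.6 in APP-GFP samples (log2 fold change −3.39, SE 1.13 and limma adjusted p = 0.646). *Kcne4* was not called at a minimum level of 100, where the other two were not tested. Microglial and endothelial markers moved in the same direction. All 8 microglial and all 8 endothelial markers were called lower in APP-SOCS3, and 4 of 8 mural markers were. The summed endothelial level ran from 4290.1 to 23472 for APP-GFP samples and from 879 to 4779 for APP-SOCS3 samples, and the summed microglial level from 11548.5 to 49391 and from 6336.5 to 11397, with none of these 16 markers at 0 in a whole group. The part of these cells in the lower channel genes was not tested.

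**Figure D5:**
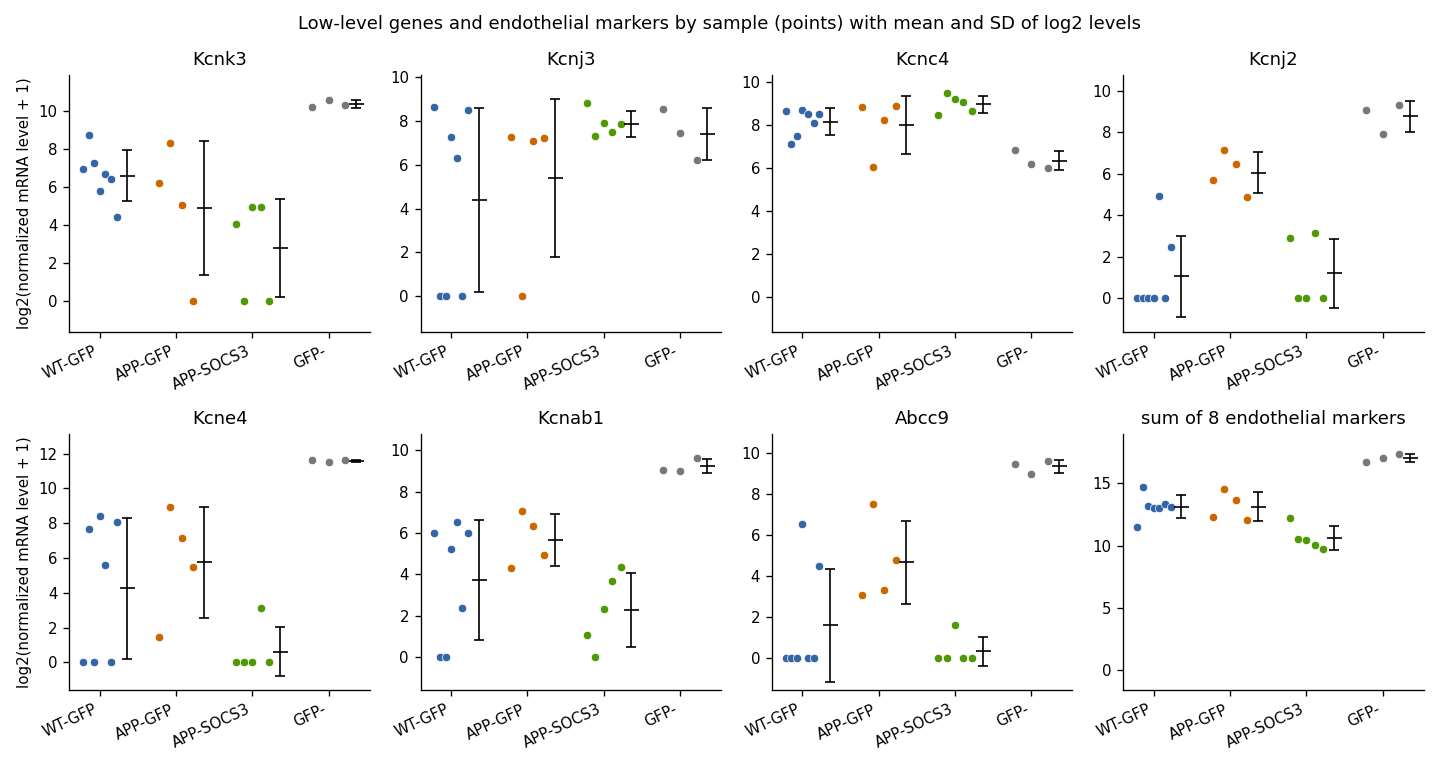
Log2(level + 1) of 6 channel genes, of *Abcc9* and of the sum of 8 endothelial markers (y axes) in each sample of the 4 groups (x axes), with points for samples and black bars for the mean and SD of log2 levels. *Kcnj2*, *Kcne4*, *Kcnab1*, *Abcc9* and the endothelial markers are highest in GFP- samples and lower in APP-SOCS3 than in APP-GFP samples, apart from overlap in *Kcne4*, *Kcnab1* and the markers.

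Of 63 members tested, 3 were called higher and 3 lower in APP-SOCS3, against 2.33% and 3.37% of 22844 genes. Groups did not overlap for 4 members that were higher and 1 that was lower, against 0.924% and 1.09% of all genes. By limma none had an adjusted p under 0.05, with 7 at an unadjusted p under 0.05, and the adjusted count was 0 by edgeR and 4 by DESeq2. Without the 4 libraries 4 were called higher and 5 lower. The total was 9 without APP-GFP replicate 2 or 4 and 4 without APP-GFP replicate 3 or APP-SOCS3 replicate 1 or 3. Members had a median log2 fold change of −0.33 and all genes 0.08. APP-GFP samples serve in both this comparison and the one before, so the opposite signs of *Kcnj2* in them rest on the same 4 samples. WT-GFP samples likewise serve in the comparisons with GFP- cells, APP-GFP and APP-SOCS3 astrocytes.

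Against WT-GFP astrocytes, *Kcnn2* was called higher and *Kcnk3* lower in APP-SOCS3 astrocytes, neither with an adjusted p under 0.05 by limma. The 2 groups differ in both genotype and vector, whose parts cannot be told apart here. *Kcnn2* was at 4336 ± 364 (SD, n = 5) in APP-SOCS3 and 2877 ± 537 (SD, n = 7) in WT-GFP astrocytes, with every APP-SOCS3 sample above every WT-GFP sample (log2 fold change 0.61, SE 0.160 and limma adjusted p = 0.314, exact permutation p = 0.00253, the lowest these sample numbers permit). The call was lost without WT-GFP replicate 2 (log2 fold change 0.50), without APP-SOCS3 replicate 1 (0.58) and without the 4 libraries with few genes detected (0.57). *Kcnk1* was not called, with a log2 fold change of 0.35 and overlap of the groups. *Kcnk3* was at 15.5, 0, 30.0, 29.4 and 0 in APP-SOCS3 and from 20.3 to 418 with a median of 100.3 in WT-GFP astrocytes (log2 fold change −3.80, SE 1.09 and limma adjusted p = 0.410, exact p = 0.00758), and its call held in all 22 alternatives. *Kcnc4* (0.82), *Kcng2* (2.87) and *Kcnab3* (2.89) were called higher and *Kcnmb1* (−2.32) lower on the log2 scale, all with overlap and none in every alternative. *Kcng2* (1.94 and 1.92) and *Kcnab3* (1.27 and 1.28) were not called by edgeR and DESeq2, and *Kcnmb1* not by edgeR. Without 1 sample, *Kcnc4* lost its call for APP-SOCS3 replicates 2, 3 and 4 (0.69 to 0.80), *Kcng2* for WT-GFP replicates 2 and 6 and APP-SOCS3 replicates 1 and 2 (2.46 to 2.83), *Kcnmb1* for APP-SOCS3 replicates 1 and 3 (−2.001 and −1.977), and *Kcnab3* for WT-GFP replicates 1, 2, 3 and 6 and each APP-SOCS3 replicate (2.46 to 3.07).

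Here 67 members were tested, and 4 were called higher and 2 lower, against 3.19% and 2.02% of 22958 genes. None had an adjusted p under 0.05 by limma, with 7 at an unadjusted p under 0.05, and the adjusted count was 0 by edgeR and 2 by DESeq2. Without the 4 libraries, of which 3 are WT-GFP samples, 2 were called higher and 10 lower, with *Kcnk3* and *Kcne4* among the lower. Without APP-SOCS3 replicate 1 there were 2 calls. Of the markers, 6 of 8 microglial, 6 of 8 endothelial and 5 of 8 mural genes were called lower in APP-SOCS3 as well, and their part in the lower channel genes was not tested. Over all genes tested, log2 fold changes had a median of 0.19 by limma and 0.02 by edgeR.

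Genes without a Kcn symbol that serve channels or K+ transport were described as a list of 34. Between WT-GFP astrocytes and GFP- cells, 12 of 32 tested were called higher and 14 lower, against 9.25% and 33.5% of all genes. The pump subunits *Atp1b2*, *Fxyd1* and *Fxyd7* were among those higher, with a mean of 21625 for *Atp1b2* in astrocytes and 4041 in GFP- cells (log2 fold change 2.38, SE 0.300 and limma adjusted p = 0.000143). So were 4 of 5 genes of the complex of Kir and water channels at endfeet (among them *Aqp4*, *Dmd* and *Dtna*, with log2 fold changes of 3.17, 1.14 and 2.46) and *Amigo1*, a Kv partner (2.18). The sulfonylurea receptors *Abcc8* and *Abcc9*, which form ATP-sensitive channels with *Kcnj8* or its relatives, were lower, with *Abcc8* undetected in WT-GFP astrocytes (at least 30.0-fold lower). *Abcc8* passed the minimum level through GFP- cells alone.

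Of 27 genes of this list tested between GFP+ groups, 0 were called by limma in APP-GFP against WT-GFP astrocytes, with 0 at an unadjusted p under 0.05 and 0 called by edgeR and DESeq2. The fits without APP-GFP replicate 2 or 3 or WT-GFP replicate 1, 4 or 7 called 1 or 2, among them *Abcc9*, *Dpp10* and *Lrrc38*. In APP-SOCS3 against WT-GFP astrocytes 0 were called by limma, with 0 at an unadjusted p under 0.05, and 1 each by edgeR (*Dpp10*) and DESeq2, while 2 (among them *Dpp6*) were called lower without WT-GFP replicate 3 and 1 (*Dpp6*) without APP-SOCS3 replicate 2. In APP-SOCS3 against APP-GFP astrocytes 4 were called, all lower, against 3.37% of all genes. Among them were *Abcc9* (at most 3 reads in each APP-SOCS3 sample and 7.24, 182, 8.90 and 26.2 in APP-GFP samples, at least 16.9-fold lower and at least 4.26-fold without APP-GFP replicate 2) and the Kv partners *Dpp6* and *Dpp10* (log2 fold changes −4.34, −5.24 and −4.02, with no adjusted p under 0.05 by limma). *Abcc9* and *Dpp10* passed the minimum level through APP-GFP samples alone. The 5 endfoot genes were not called, with log2 fold changes of 0.18 for *Aqp4* and −0.01 for *Dmd*.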

How the data were processed

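The authors made libraries with a low-input full-length cDNA kit, mapped reads to mm10 with STAR 2.4.0, counted, per gene in FAST DB, those in parts present in all its transcripts, and scaled these counts with the size factors of DESeq2. The deposited values are this signal per gene and sample. Whole reads were recovered by dividing by the value of 1 read, and 100% of values came out whole within 0.01. Intervals and floors cover counting error only, since PCR copies are not independent molecules.

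Here limma 3.58.1 in R 4.3.3 was run on log2(level + 1) (trend = TRUE), using only samples of the compared pair and genes whose mean level reached 10 in 1 or both of them. Adjusted p is Benjamini-Hochberg over all genes tested, and exact tests are 2-sided permutation tests of mean log2 levels, with smallest p of 0.0167 (WT-GFP against GFP-), 0.00606 (APP-GFP against WT-GFP), 0.0159 (APP-SOCS3 against APP-GFP) and 0.00253 (APP-SOCS3 against WT-GFP). edgeR 4.0.16 and DESeq2 1.42.0 on whole reads, pseudocounts of 0.1 and 10, minimum levels of 0 and 100, equal totals, all 19 samples in 1 fit, the replicate number as a block and each sample left out were alternatives. The tests were checked on simulated counts, with the same dispersion for every gene and large changes placed only in genes far above the floor. Changes in genes near the floor or with a wider spread were not covered by this check. Where a symbol stood on several entries, that with the highest summed level is named.

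The genes and lists were chosen with earlier results of these data known. Named genes are *Kcnj10*, *Kcnj16*, *Kcnk1*, *Kcnk2*, the 3 highest per kb of each class in WT-GFP astrocytes and in GFP- cells, members called between GFP+ groups, the 5 higher and 5 lower members with the smallest p among those without overlap in WT-GFP astrocytes against GFP- cells, and those known in other cells. *Kcng4* and the genes named for alternatives were added after their values were seen. Values of some genes that the counts include are not reported here. Groups follow the labels. Samples were taken as replicates, and p measures only the spread between them if some share a mouse.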

Additional observations from a re-analysis of the deposited data

Results flagged for a closer look

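In groups of 4 or more samples, 83 sets of levels of named genes were searched for a sample far from the rest (Dixon's test at 95%), and chance flags about 1 in 20 groups. It marked 7. In APP-GFP astrocytes, replicate 2 stood apart in 3 of them, high for *Kcnk6* (503) and *Kcng2* (382) and at 0 for *Kcnj3*, and replicate 3 was high for *Kcnj8* (944). In WT-GFP astrocytes, replicate 2 was high for *Kcnk3* (418). In APP-SOCS3 astrocytes, replicate 1 was high for *Kcng2* (124) and *Kcnj3* (452). APP-GFP replicate 2 and WT-GFP replicate 2 are among the 4 libraries with few genes detected.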

How the results depend on the processing

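The 8 members called higher in WT-GFP astrocytes than in GFP- cells kept their calls in all 20 alternatives, except *Kcnc4* with the replicate block (1.42 on the log2 scale). Counts of 7 to 10 were called higher. The count called lower was 46, and 25 by edgeR and 27 at a minimum level of 100, where 52 members were tested. Calls between APP-GFP and WT-GFP were 1 at a minimum level of 100 and 2 to 4 with each sample left out, and those between APP-SOCS3 and APP-GFP were 3 at that minimum. Those between APP-SOCS3 and WT-GFP were 3 at that minimum, 12 without the 4 libraries with few genes detected and 2 to 8 with each sample left out. Adjusted p under 0.05 left 0 in each of these 3 comparisons by limma (4, 7 and 7 at an unadjusted p under 0.05, and 0 by edgeR). Apart from the minimum level, which tests fewer genes, and the replicate block, which draws on fewer samples, the causes were not tested.
Replicate numbers did not pair the samples, as same-numbered samples correlated by −0.08 to 0.15 in their deviations. With the replicate block, 7 members were higher and 47 lower in astrocytes, and 6, 6 and 5 were called in the other comparisons. The block fit draws its fold change only from replicate numbers found in both groups. For WT-GFP astrocytes against GFP- cells these are replicates 1, 2 and 3. In WT-GFP astrocytes all of them are among the 4 libraries with few genes detected.
Signs turned for genes that were not called. In WT-GFP astrocytes against GFP- cells these were *Kcnj10* (−0.024), *Kcnh6* (−0.18), *Kcna6* (0.12), *Kcnt1* (−0.39) and *Kcnk2* (−1.65) with the replicate block, and *Kcnk2* at a pseudocount of 0.1 (−0.43) and at equal totals (−0.11). With a sample left out, *Kcnk2* ranged from −0.26 to 1.21 and *Kcnh6* from −0.20 to 0.50.
In APP-GFP against WT-GFP they were *Kcnj10* by edgeR (−0.34), DESeq2 (−0.37) and without the 4 libraries (−0.14), *Kcnk2* likewise (−0.24, −0.26 and −0.56) and *Kcnn2* without the 4 libraries (−0.0023).
In APP-SOCS3 against WT-GFP it was *Kcnj10* by edgeR (−0.38), DESeq2 (−0.41) and without the 4 libraries (−0.17).
With a sample left out, *Kcnj10* ranged from −0.42 to 0.79, −0.58 to 0.062 and −0.63 to 0.59 in APP-GFP against WT-GFP, APP-SOCS3 against APP-GFP and APP-SOCS3 against WT-GFP. *Kcnk2* (−0.41 to 1.06) and *Kcnn2* (−0.060 to 0.16) did so in the first of these and *Kcnj16* (−0.0073 to 0.56) in the second.
Of 714, 187, 150 and 217 values of single genes under alternatives in the 4 comparisons, 645, 144, 129 and 179 kept direction and side of the threshold. Depth limits members near 3 reads, whose fold changes move with the pseudocount.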
